A study of Bos taurus with 16 samples.

Results

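The corpus luteum of day 23 of pregnancy was compared with that of day 14, the widest span of a series in cattle (Bos taurus) that also sampled day 17 and day 20. Each of these 2 days had 4 libraries of messenger RNA from glands of pregnant animals, counted in days from breeding. The animals had been mated at estrus and inseminated afterwards, those not found pregnant were left out, and the labels give no treatment, breed or age. The comparison takes 8 of the 16 libraries of the series, and the libraries of day 17 and day 20 enter only to estimate the spread and to show the order of the days. Values are RPKM, the reads of a gene per kilobase of its length, scaled to the total reads of the library. The genes described are the 12890 of 27233 in the table that reached an RPKM of 1 in 4 or more of the 8 libraries. At the edge of that rule, 221 genes reached an RPKM of 1 in exactly 4 libraries (median RPKM 1.08), and 191 genes reached it in 3 and were left out (median RPKM 0.936). The series asks how luteal mRNA changes while a pregnancy is being established.

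The corpus luteum forms from the ovulated follicle and secretes progesterone, the steroid that maintains pregnancy. Its steroid-secreting luteal cells lie in a dense bed of capillaries, with pericytes, fibroblasts and immune cells among them. In cattle that are not pregnant, prostaglandin F2 alpha from the uterus ends the life of the gland. In pregnant cattle the conceptus secretes interferon tau, a type I interferon that restrains this signal, and genes that such interferons induce are known to be raised in the gland at that stage.

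The libraries held about 32524500 to 34757600 reads on day 23 and 30628300 to 38844700 on day 14, as recovered from the steps of the RPKM values. Across genes, the median Pearson correlation was 0.9693 for pairs of a day 23 and a day 14 library and 0.975 for pairs within a day. Genes are not independent replicates, so these correlations only describe the libraries. The markers of the tissue were present: all 9 luteal cell markers in the table and all 24 endothelial markers reached the level for testing. Among 9 red blood cell and platelet genes, 6 stayed below an RPKM of 1 in all 8 libraries, with HBA and CA1 at 0. Among 6 oocyte genes 5 did so, with ZP4 and FIGLA at 0. The red blood cell gene AHSP had 0.726 to 2.22 RPKM. The 1 tested oocyte gene was higher on day 23 at an unadjusted p under 0.05. It was no longer so when replicate 1, 3 or 4 of day 14 or replicate 1 or 2 of day 23 was left out. The ribosomal RNA family RF00002 had 21454 RPKM in day 23 replicate 3, against 128.1 to 534.9 in the other 7 libraries for the same row of the table. The same library had the lowest interferon effector values of day 23, with a mean log2(RPKM + 1) of 3.61 against 4.22 to 4.49 in the other 3, and it stood apart from them in IRF7, IFNAR1, TOP2A and CCNB1. In whole glands, fewer cells of a type and less RNA per cell cannot be told apart.

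No gene passed an adjusted p of 0.05 in the model over all 16 libraries, 0.0% of those tested. The smallest adjusted p was 0.0534 (limma with Benjamini-Hochberg adjustment), for HSPE1. An unadjusted p under 0.05 was reached by 1632 genes. Of these, 561 were higher on day 23, 4.35% of all genes tested, and 1071 were lower, 8.31%. All day 23 values exceeded all day 14 values in 280 genes, 2.17%, and all were under them in 623, 4.83%. Most differences were small: 94.1% of genes lay within 0.5 on the log2 scale of RPKM + 1, 70 genes were higher by over 1 and 55 lower by over 1, and the median standard error was 0.12. The median over all genes was -0.03, and with median-ratio scaling of the libraries 792 of 1612 genes at an unadjusted p under 0.05 were higher in place of 561 of 1632. With quantile normalization it was 746 of 1647, so the surplus of lower genes depends on the scaling.

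The count of 0 depends on which libraries set the spread. When the 8 libraries of both days were fitted alone, 13 genes passed, 0.101% of those tested, 7 higher and 6 lower, with a smallest adjusted p of 0.0329 in limma and 1579 genes at an unadjusted p under 0.05. The 7 higher genes were MX2, OAS1Y, IFIT1, HERC6, DDX58 and DHX58, all on the interferon lists used here, and C7 of the complement system. The interferon lists together hold 73 of the 12890 genes tested. The 6 lower genes were EREG, FOSL1, TNFAIP6, FABP3, PRKX and ABCG1. ABCG1 stayed below an RPKM of 1 in every day 23 library, and MX2 in every day 14 library. Each met the rule for testing only through the day where it was higher, so having met it lends the difference no weight. In that fit the count became 52 without day 23 replicate 3, 4 without day 14 replicate 1, 3 without day 14 replicate 4 and 1 without day 23 replicate 4, and it was 0 without any one of the other 4 libraries. Day 23 replicate 3 is the library with the high RF00002 value, whose part was not tested. In the model over 16 libraries, 23 genes passed without day 17 replicate 3, of which 13 are on the interferon lists, 14 without day 14 replicate 1, 9 without day 17 replicate 4, 7 without day 17 replicate 2, 3 without day 20 replicate 1, 2 without day 20 replicate 2 and 1 without day 20 replicate 3. Higher and lower are therefore used below of measured values, and no gene is said to have risen or fallen. The counts of list members below are set beside the shares over all genes, 4.35% higher and 8.31% lower. Members and lists were chosen with earlier results of these data known, so a count above its share is a description and no test. Over all genes 43.1% had a positive log2 fold change. The groups did not overlap in 2.17% of all genes with day 23 higher and in 4.83% with day 23 lower.

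**Figure D1:**
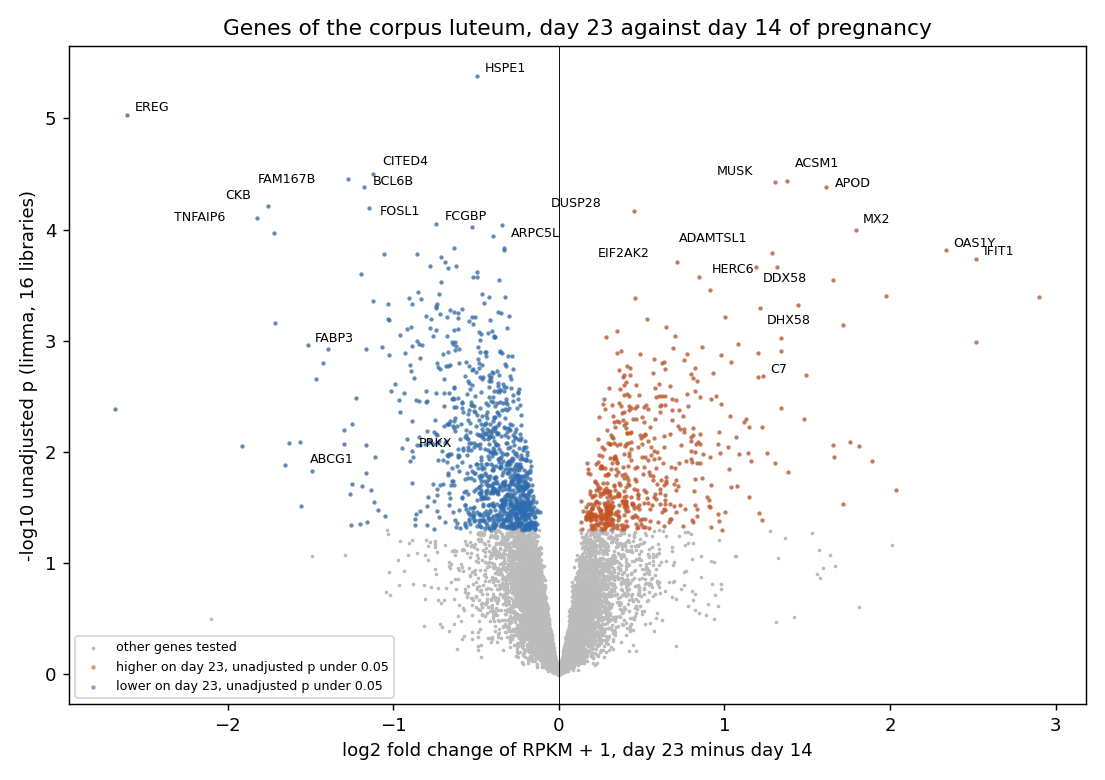
Each of the 12890 tested genes by its log2 fold change of RPKM + 1, day 23 minus day 14 (x axis), and the -log10 of its unadjusted p in limma (y axis). Genes at an unadjusted p under 0.05 are orange where higher on day 23 (561) and blue where lower (1071); named are the 10 with the smallest p in each direction and those that passed with the 8 libraries alone, with HSPE1 at the top and EREG far to the left.

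Among the 10 higher genes with the smallest p, 5 are on the interferon lists, which hold 73 of the 12890 genes tested, and 5 are not. The other 5 were ACSM1, MUSK, APOD, DUSP28 and ADAMTSL1. ACSM1, a mitochondrial enzyme that activates medium-chain fatty acids, had 54.0, 34.6, 77.1 and 50.9 RPKM in day 23 glands, against 17.3, 15, 23.0 and 23.5 RPKM in day 14 glands. Its lowest day 23 library lay above the highest of day 14, and the log2 fold change was 1.38 ± 0.24 (SE; limma adjusted p = 0.0665). APOD, apolipoprotein D, a carrier of small lipids, had 210, 278.5, 240.4 and 290.2 RPKM on day 23, against 75.0, 69.9, 61.0 and 140.1 RPKM on day 14, where replicate 4 was the highest. Its log2 fold change was 1.61 ± 0.28 (limma adjusted p = 0.0665). MUSK, a receptor kinase best known from the neuromuscular junction, averaged 14.7 ± 4.97 RPKM on day 23 and 5.33 ± 1.90 RPKM on day 14 (SD, n = 4 each). ADAMTSL1, a secreted matrix protein, averaged 14.2 ± 5.50 RPKM on day 23 and 5.04 ± 1.04 RPKM on day 14. DUSP28, a phosphatase, averaged 51.4 ± 3.51 RPKM on day 23 and 37.2 ± 3.53 RPKM on day 14, a smaller difference with a small spread.

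Among the 10 lower genes with the smallest p, HSPE1 had the tightest groups. It encodes the co-chaperonin of the mitochondrial matrix and had 245.2, 233.7, 234.0 and 226.9 RPKM on day 23, against 342.8, 332.7, 330.2 and 318.9 RPKM on day 14, a log2 fold change of -0.49 ± 0.07. Its partner HSPD1, the chaperonin itself, had 85.8, 90.9, 92.5 and 90.2 RPKM on day 23, against 141.2, 131.3, 115.8 and 110.6 RPKM on day 14. In both genes the groups did not overlap.

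EREG, epiregulin, a ligand of the epidermal growth factor receptor, had the widest ratio of the 10. It had 1.41, 2.69, 1.19 and 1.74 RPKM on day 23, against 17.2, 9.91, 12.2 and 27.1 RPKM on day 14. These values rest on 89 to 205 reads per library on day 23 and 817 to 1844 on day 14. The log2 fold change was -2.61 ± 0.40 (limma adjusted p = 0.0599, and 0.0329 with the 8 libraries alone). CKB, the brain-type creatine kinase, had 14.9, 12.0, 20.1 and 6.41 RPKM on day 23, against 30.7, 31.8, 50.4 and 77.6 RPKM on day 14. TNFAIP6, which cross-links hyaluronan in matrix, had 9.51, 7.68, 9.89 and 7.26 RPKM on day 23, against 20.7, 34.7, 40.3 and 39.1 RPKM on day 14.

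The remaining 6 of the lower genes were between 0.300-fold and 0.782-fold in mean RPKM. FOSL1, an AP-1 transcription factor, had 1.22, 1.25, 1.14 and 0.773 RPKM on day 23, against 3.08, 3.99, 4.38 and 3.14 RPKM on day 14. CITED4, a transcriptional coregulator, averaged 50.9 ± 14.3 RPKM on day 23 and 110.4 ± 20.1 RPKM on day 14 (SD, n = 4 each). BCL6B, a transcriptional repressor, averaged 8.29 ± 1.43 RPKM on day 23 and 20.3 ± 4.85 RPKM on day 14. FAM167B averaged 6.06 ± 2.08 RPKM on day 23 and 15.5 ± 0.45 RPKM on day 14. FCGBP, a mucin-like secreted protein, averaged 0.925 ± 0.35 RPKM on day 23 and 2.19 ± 0.26 RPKM on day 14. FOSL1 and FCGBP exceeded an RPKM of 1 in every day 14 library but not in every day 23 library. Having met the rule for testing lends their differences no weight. ARPC5L, a subunit of the actin-branching complex, averaged 31.9 ± 0.99 RPKM on day 23 and 40.8 ± 3.71 RPKM on day 14.

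**Figure D2:**
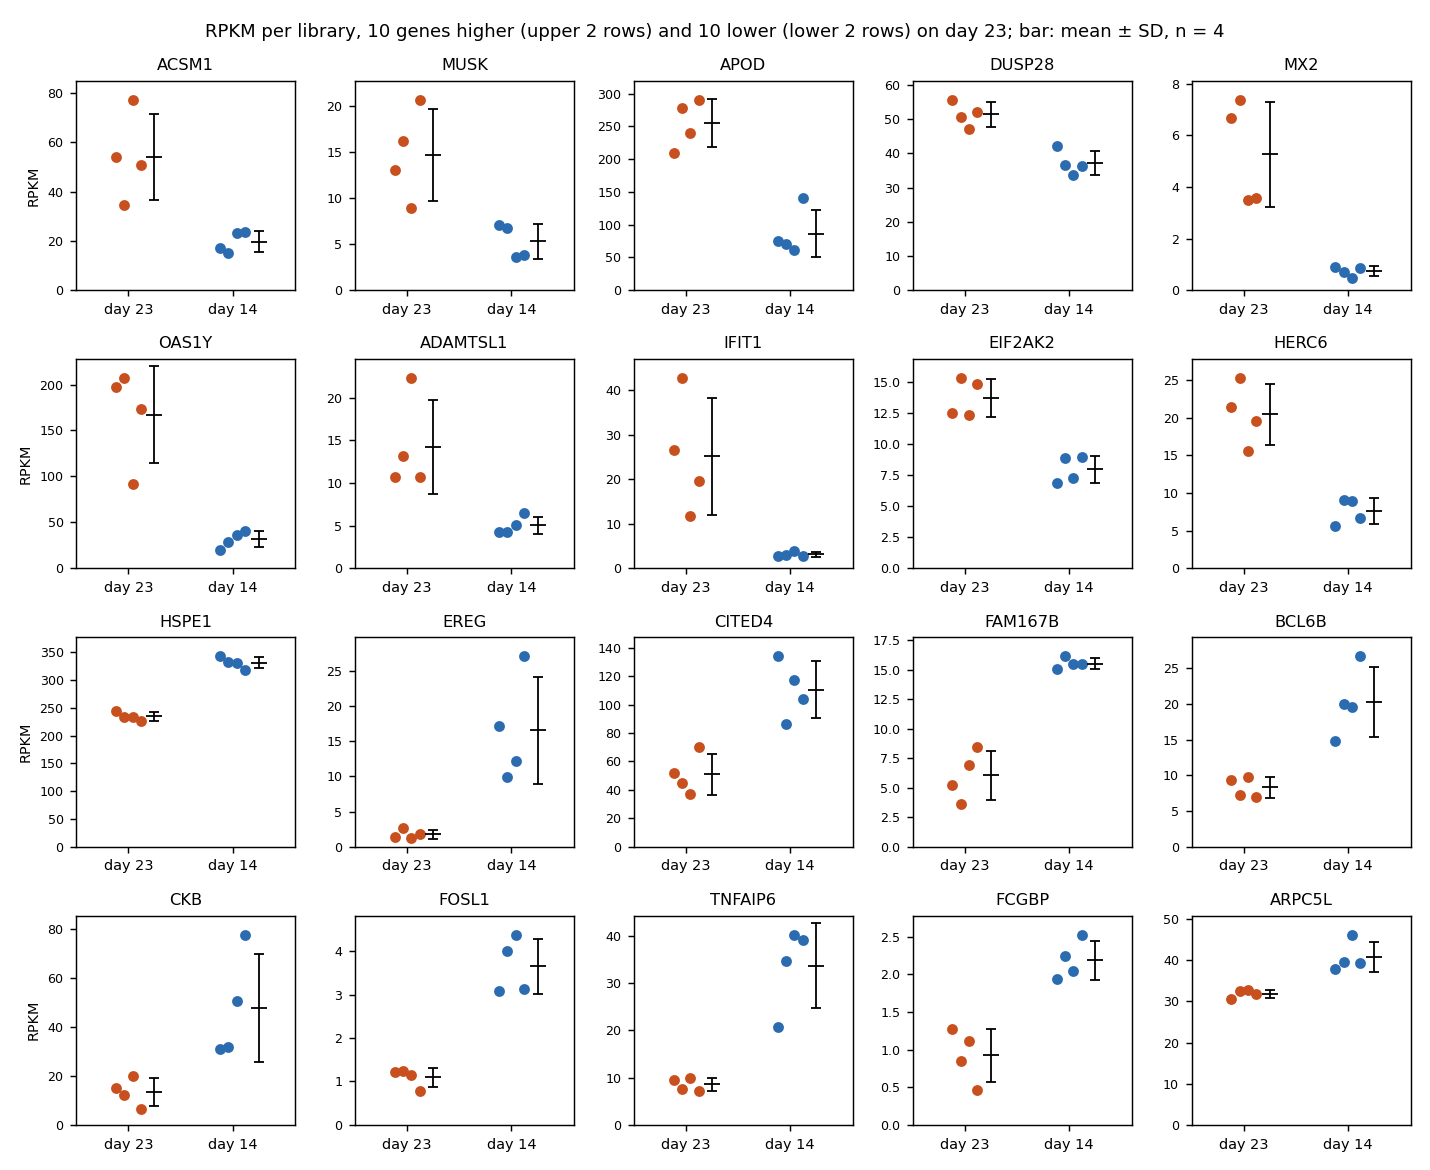
RPKM per library (y axis, from 0) of the 10 higher and the 10 lower genes with the smallest p, with the 4 day 23 libraries left and the 4 day 14 libraries right; bars are the mean ± SD. In each of the 20 panels the groups do not overlap, and HSPE1 and ARPC5L show the smallest spread relative to the mean on day 23.

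Of these 20 genes, 15 had the means of both day 17 and day 20 between those of the end days, 9 of the 10 lower and 6 of the 10 higher genes. Over all genes tested the same held for 20.9%, and over those at an unadjusted p under 0.05 for 62.6%. The genes were chosen by their end days, so this is a description. HSPE1 averaged 331 RPKM on day 14, 293.5 RPKM on day 17, 263 RPKM on day 20 and 235 RPKM on day 23. For ISG15, the ubiquitin-like protein that interferon induces, the means were 21.2 RPKM on day 14, 119 RPKM on day 17, 196 RPKM on day 20 and 169.5 RPKM on day 23. ADM and ACSM1 had their highest mean on day 23.

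**Figure D3:**
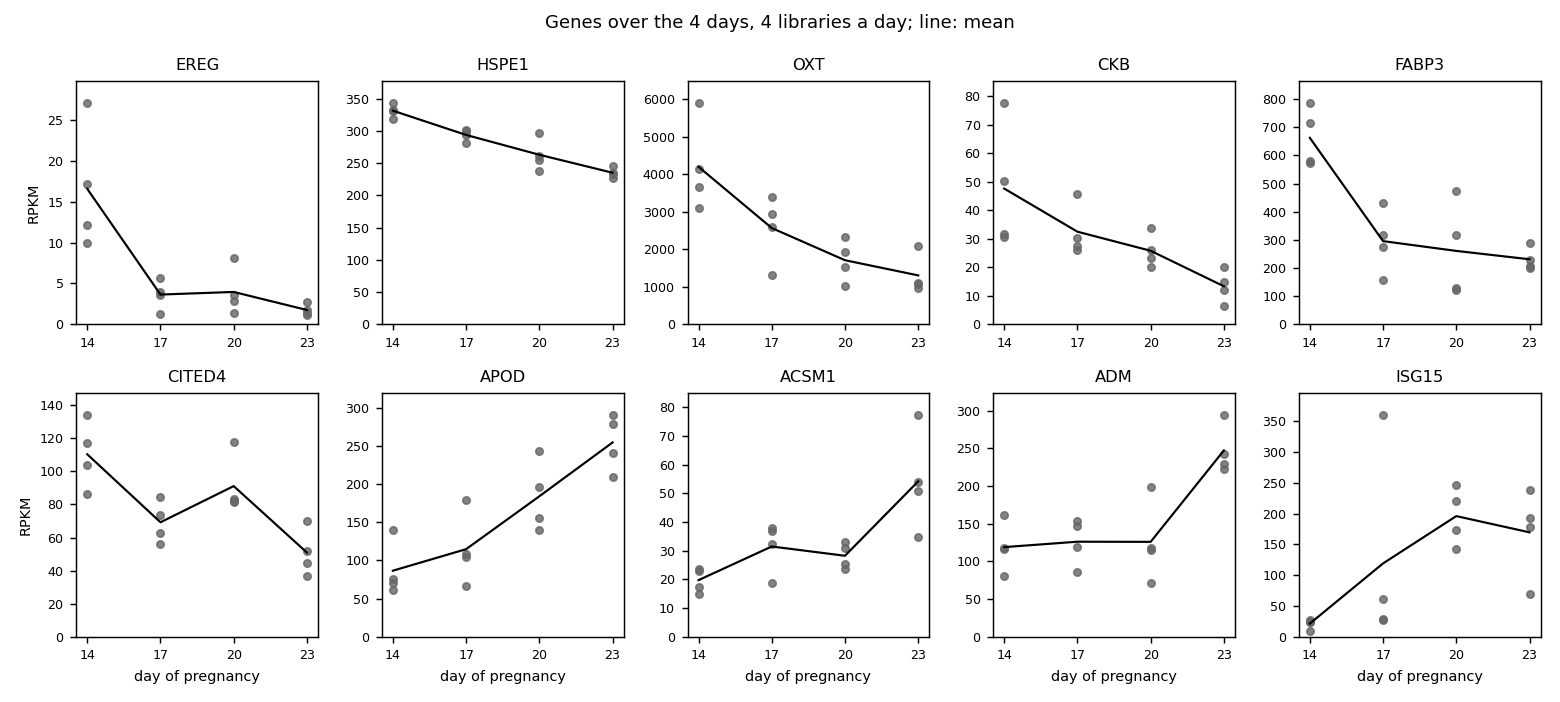
RPKM (y axis, from 0) of 10 genes on day 14, 17, 20 and 23 of pregnancy (x axis), 4 libraries a day as points and their mean as a line. EREG, HSPE1, OXT, CKB, FABP3 and CITED4 are lowest on day 23, while APOD, ACSM1 and ADM are highest there.

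Genes induced by type I interferon were higher on day 23 in most members of 3 lists. Of 27 tested antiviral effectors 25 were positive, 22 were higher at an unadjusted p under 0.05 and 0 lower, where 4.35% of all genes were higher, and the median log2 fold change was 1.09 against -0.03 over all genes. For 17 of them the groups did not overlap, where 2.17% of all genes were higher without overlap. IFIT1, which binds foreign RNA, had 26.5, 42.7, 11.7 and 19.5 RPKM on day 23, against 2.83, 3.08, 3.93 and 2.75 RPKM on day 14. MX2, a dynamin-like antiviral GTPase, had 6.66, 7.37, 3.50 and 3.57 RPKM on day 23, against 0.909, 0.699, 0.493 and 0.881 RPKM on day 14, from 492 to 1086 and 64 to 146 reads. EIF2AK2, the kinase that halts translation on double-stranded RNA, averaged 13.8 ± 1.54 RPKM on day 23 and 8.003 ± 1.07 RPKM on day 14. OAS1Y, a synthetase that activates RNase L, averaged 167 ± 52.5 RPKM on day 23 and 31.7 ± 8.92 RPKM on day 14, with reads that the near-identical copies OAS1X and OAS1Z can share. The lowest member had a log2 fold change of -0.03.

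The machinery that attaches ISG15 to proteins was higher in 7 of 7 tested members, and all 7 were at an unadjusted p under 0.05. ISG15 itself had 192.9, 238.1, 69.3 and 177.8 RPKM on day 23, against 9.64, 27.5, 23.6 and 24.0 RPKM on day 14. USP18, which removes ISG15 again, had 15.5, 19.6, 9.48 and 18.01 RPKM on day 23, against 3.32, 4.93, 5.97 and 5.95 RPKM on day 14. HERC6, the ligase that attaches it in mice, averaged 20.4 ± 4.00 RPKM on day 23 and 7.62 ± 1.72 RPKM on day 14. Day 23 replicate 3, the library with the high RF00002 value, was the lowest day 23 library in all 3 genes, and it still lay above the 4 day 14 libraries. TRIM25, a ligase that also assists RIG-I, differed least, with 33.2 ± 3.66 RPKM on day 23 and 25.6 ± 2.67 RPKM on day 14.

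Sensors of foreign nucleic acid were mixed: 7 of 11 were positive, 4 were higher at an unadjusted p under 0.05 and 1 was lower, with a median of 0.20. The 4 higher ones were the RNA helicases DDX58 (which encodes RIG-I), DHX58 and IFIH1 and the nucleic acid sensor ZBP1. DDX58 had 23.4, 26.0, 16.5 and 22.3 RPKM on day 23, against 6.87, 8.88, 10.2 and 10.5 RPKM on day 14. DHX58 had 22.4, 19.7, 13.0 and 19.1 RPKM on day 23, against 6.48, 7.10, 8.65 and 7.03 RPKM on day 14. In both the groups did not overlap. Interferon-induced PARP and TRIM genes were positive in 11 of 11, with 8 at an unadjusted p under 0.05 and a median of 0.44, among them PARP10 with 26.7 ± 5.91 RPKM on day 23 and 14.7 ± 1.25 RPKM on day 14.

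Of 19 genes of the interferon receptors and JAK-STAT pathway 11 were positive, where 43.1% of all genes were. Of these 19, 2 were higher and 1 lower at an unadjusted p under 0.05, and the median was 0.07. Without day 23 replicate 3, 4 were higher. The 2 higher ones, IRF7 and IRF9, are transcription factors that interferon itself induces. IRF7 had 30.2, 32.4, 12.8 and 30.8 RPKM on day 23, against 9.44, 12.7, 10.5 and 9.004 RPKM on day 14. The receptor chain IFNAR1 was lower, with 12.4, 12.5, 14.6 and 12.7 RPKM on day 23, against 15.1, 17.7, 18.3 and 23.6 RPKM on day 14. In MHC class I and peptide loading 12 of 18 were positive and 0 were at an unadjusted p under 0.05 (2 higher without day 14 replicate 2). One abundant member, JSP.1, ranged from 128 to 709 RPKM on day 23 and from 278.5 to 1364 RPKM on day 14, and near-identical class I genes can share its reads.

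**Figure D4:**
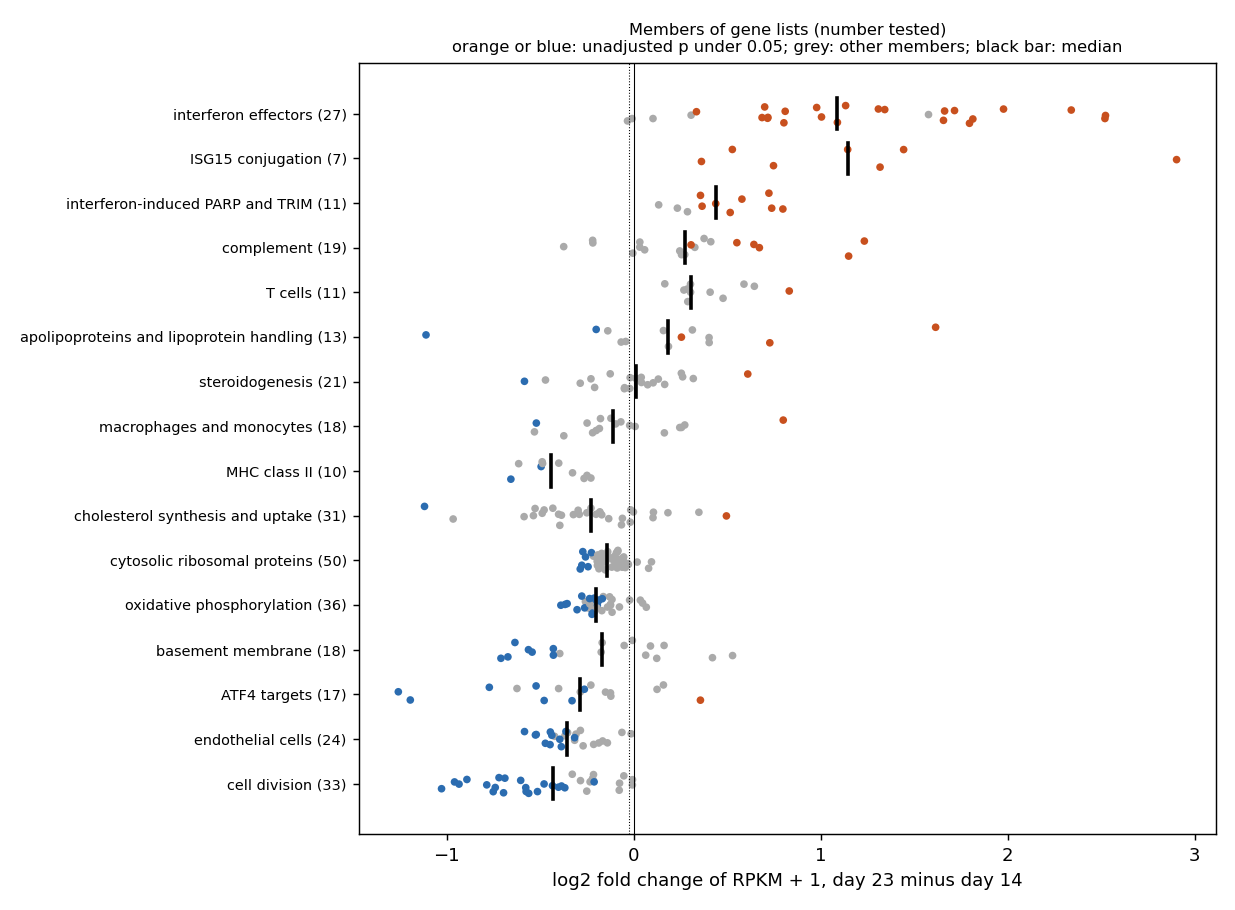
Log2 fold change of RPKM + 1, day 23 minus day 14 (x axis), of each tested member of 16 gene lists (rows, number tested in brackets); orange and blue members are at an unadjusted p under 0.05, grey ones are not, black bars are the list medians and the dotted line is the median of all genes, -0.03. Interferon effectors and ISG15 conjugation lie farthest to the right, with medians of 1.09 and 1.14, and endothelial and cell division genes to the left, with medians of -0.36 and -0.43.

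Immune cell markers gave no common direction. All 11 tested T cell markers were positive, with a median of 0.30 (0.48 without replicate 1 of day 14 and 0.49 without replicate 3 of day 23), and 1 was at an unadjusted p under 0.05 (5 when replicate 3 of day 23 was left out, and 4 when replicate 1 of day 14 was). That was CD2, an adhesion receptor, with 4.71, 2.71, 1.90 and 4.94 RPKM on day 23, against 2.24, 1.198, 1.30 and 1.22 RPKM on day 14, where the groups overlapped. Of 19 T cell markers in the table, 5 stayed below an RPKM of 1 in all 8 libraries. The macrophage and monocyte markers were positive in 6 of 18. SIGLEC1, a sialic acid receptor that interferon induces, averaged 2.90 ± 1.03 RPKM on day 23 and 1.197 ± 0.37 RPKM on day 14, while CD68, a lysosomal macrophage protein, averaged 14.2 ± 4.29 RPKM on day 23 and 20.5 ± 3.95 RPKM on day 14. Of 4 tested cytotoxic cell markers 3 were positive, with a median of 0.36 (0.20 without day 14 replicate 4). At an unadjusted p under 0.05 there were 0 (2 higher without day 14 replicate 1). NCR3 averaged 6.05 ± 1.14 RPKM on day 23 and 5.11 ± 1.16 RPKM on day 14. NKG7, a granule protein and the 1 negative member, averaged 4.93 ± 1.38 RPKM on day 23 and 5.12 ± 1.199 RPKM on day 14. The summed RPKM of the T cell markers was 20.4 to 47.7 on day 23 and 18.5 to 34.0 on day 14, and that of the macrophage markers 232 to 390 on day 23 and 222 to 338 on day 14. The part of these cells in the interferon values was not tested.

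MHC class II genes, which present antigen on dendritic cells, macrophages and B cells, were negative in 10 of 10 tested members, with a median of -0.44 (-0.25 without replicate 3 of day 14 and -0.26 without replicate 4 of day 23), and 2 were at an unadjusted p under 0.05, where 8.31% of all genes were. BOLA-DRB3 had 57.9, 46.9, 68.8 and 38.5 RPKM on day 23, against 64.8, 72.4, 98.6 and 98.8 RPKM on day 14. BOLA-DRA had 74.8, 74.3, 77.5 and 51.0 RPKM on day 23, against 74.7, 101.1, 122.5 and 95.2 RPKM on day 14. In both genes day 23 replicate 4 was the lowest library and the groups overlapped. Leaving out replicate 3 or 4 of day 14, or replicate 2 or 4 of day 23, brought this count of 2 to 0. Leaving out replicate 2 of day 14, replicate 1 of day 23, replicate 1 or 2 of day 17, or replicate 1 or 4 of day 20 brought it to 1, and leaving out replicate 1 of day 14 to 4.

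Of the tested complement genes 15 of 19 were positive, 6 were higher at an unadjusted p under 0.05 and 0 lower, where 4.35% of all genes were higher. The median was 0.27, and it was 0.15 without replicate 1 of day 14 and 0.17 without replicate 3 of day 14. C7, a component of the membrane attack complex, had 53.5, 63.8, 88.9 and 57.3 RPKM on day 23, against 26.9, 21.6, 28.2 and 31.9 RPKM on day 14, with no overlap. CD55, which shields host cells from complement, averaged 10.3 ± 1.64 RPKM on day 23 and 6.24 ± 0.89 RPKM on day 14. SERPING1, an inhibitor of the first complement component, averaged 110.3 ± 14.4 RPKM on day 23 and 71.4 ± 24.2 RPKM on day 14. Leaving out either replicate 2 of day 14 or replicate 4 of day 23 brought the count of 6 higher complement genes to 3.

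Markers of blood vessel endothelium were negative in 24 of 24 tested members, with log2 fold changes from -0.58 to -0.01 and a median of -0.36. An unadjusted p under 0.05 was reached by 11, or 45.8%, where 8.31% of all genes were lower. For 5 the groups did not overlap, where 4.83% of all genes were lower without overlap. ECSCR, an endothelial surface protein, had 14.1, 11.5, 12.8 and 12.6 RPKM on day 23, against 17.2, 16.8, 21.6 and 19.8 RPKM on day 14. KDR, the main receptor for VEGF on endothelium, had 59.0, 69.6, 64.4 and 71.9 RPKM on day 23, against 75.8, 89.4, 100.9 and 120.0 RPKM on day 14. CDH5, the cadherin of endothelial junctions, had 50.9, 41.1, 48.0 and 45.5 RPKM on day 23, against 56.3, 55.5, 73.2 and 70.6 RPKM on day 14. Day 14 replicates 3 and 4 held the highest values of CDH5 and KDR, and the count of 11 was 7 without day 14 replicate 4.

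Of 21 genes of the VEGF, angiopoietin and apelin systems 13 were negative, where 43.1% of all genes were positive. At an unadjusted p under 0.05, 3 were lower (5 without day 20 replicate 4). APLNR, the apelin receptor, had 14.9, 12.2, 16.9 and 13.6 RPKM on day 23, against 24.6, 19.2, 38.2 and 50.5 RPKM on day 14. ANGPT2, which loosens vessels, averaged 2.87 ± 0.42 RPKM on day 23 and 3.85 ± 0.89 RPKM on day 14, and the ligand VEGFA 114.5 ± 27.6 RPKM on day 23 and 150 ± 38.9 RPKM on day 14. Pericyte and smooth muscle markers were split, with 3 higher and 2 lower at an unadjusted p under 0.05. CSPG4, a pericyte proteoglycan, averaged 5.14 ± 0.56 RPKM on day 23 and 8.41 ± 1.26 RPKM on day 14, whereas MYH11, the myosin of contractile smooth muscle, averaged 30.8 ± 7.21 RPKM on day 23 and 20.4 ± 5.58 RPKM on day 14. Leaving out replicate 2 of day 14 or replicate 3 or 4 of day 23 brought the 3 higher ones to 0, and leaving out replicate 4 of day 14 to 1. The 2 lower ones became 4 when replicate 1 of day 14 or of day 20 was left out, and 5 when replicate 2 of day 14 was.

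Basement membrane genes were lower at an unadjusted p under 0.05 in 7 of 18 tested members and higher in 0, where 8.31% of all genes were lower. The median of -0.17 was -0.11 without replicate 3 of day 14 and also without replicate 2 of day 23. COL4A1, a chain of type IV collagen, had 525, 391.5, 577 and 433 RPKM on day 23, against 707, 747, 941 and 742 RPKM on day 14. COL4A2, its partner chain, had 418, 299, 423 and 310.2 RPKM on day 23, against 456, 503, 611.5 and 529 RPKM on day 14. Both lay below the day 14 range in 4 of 4 libraries of day 23. COL18A1, the source of endostatin, averaged 139 ± 30.3 RPKM on day 23 and 223 ± 47.2 RPKM on day 14, and LAMA4, a laminin chain of vessel walls, 15.5 ± 1.105 RPKM on day 23 and 23.9 ± 6.32 RPKM on day 14. The endothelial markers were negative in 24 of 24, with a summed RPKM of 945 to 1064 on day 23 and 1028 to 1453 on day 14, and their part in the basement membrane values was not tested.

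Junction genes were negative in 15 of 17, and 5 were lower at an unadjusted p under 0.05 (3 without day 14 replicate 4). The 3 connexins named here form gap junctions. GJA5 had 41.2, 31.4, 56.8 and 48.3 RPKM on day 23, against 86.0, 69.4, 68.8 and 97.1 RPKM on day 14. GJC1 averaged 4.47 ± 0.77 RPKM on day 23 and 7.55 ± 1.29 RPKM on day 14, and GJA4 65.1 ± 12.0 RPKM on day 23 and 98.5 ± 29.9 RPKM on day 14.

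Among 14 metalloproteinases and their inhibitors 4 were lower and 1 was higher at an unadjusted p under 0.05. TIMP2, an inhibitor and the most abundant named transcript in 6 of the 8 libraries once RF00002 is set aside, was the higher one, with 8886 ± 553 RPKM on day 23 and 6049 ± 1578 RPKM on day 14. MMP9, a gelatinase, had 4.13, 4.19, 3.99 and 5.403 RPKM on day 23, against 7.69, 18.4, 9.20 and 4.94 RPKM on day 14. MMP19 averaged 5.18 ± 0.81 RPKM on day 23 and 6.80 ± 0.95 RPKM on day 14. ADAMTS4, which cleaves proteoglycans, had 2.47 to 4.30 RPKM on day 23 and 6.38 to 8.10 RPKM in 3 of the day 14 libraries, with 62.5 RPKM in day 14 replicate 4. Its log2 fold change of -1.63 was -0.89 without that library.

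Genes of cell division were the list with the most members at an unadjusted p under 0.05 on the lower side, 21 of 33 tested or 63.6%, where 8.31% of all genes were. All 33 were negative, the median was -0.43, and for 16 the groups did not overlap, where 4.83% of all genes were lower without overlap. Among members with a mean RPKM of at least 5 the median was -0.22. With median-ratio scaling or quantile normalization 2 members were positive, and leaving out 1 library gave 0 to 2 positive. TOP2A, a topoisomerase of dividing cells, had 0.928, 0.969, 2.41 and 1.15 RPKM on day 23, against 3.84, 4.08, 3.85 and 3.03 RPKM on day 14. CCNB1, the cyclin of mitotic entry, had 0.749, 0.607, 1.605 and 0.709 RPKM on day 23, against 3.09, 2.90, 2.86 and 1.89 RPKM on day 14, from 32 to 83 and 89 to 178 reads. BIRC5, survivin, averaged 1.84 ± 0.43 RPKM on day 23 and 3.54 ± 0.39 RPKM on day 14. AURKB, a mitotic kinase, averaged 1.77 ± 0.55 RPKM on day 23 and 3.61 ± 0.83 RPKM on day 14. Day 23 replicate 3 was the highest of day 23 in TOP2A, CCNB1 and BIRC5. TOP2A, CCNB1, BIRC5 and AURKB were each at a few RPKM or less on both days. TOP2A and CCNB1 exceeded an RPKM of 1 in every day 14 library but not in every day 23 library. Having met the rule for testing therefore lends these 2 differences no weight.

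**Figure D5:**
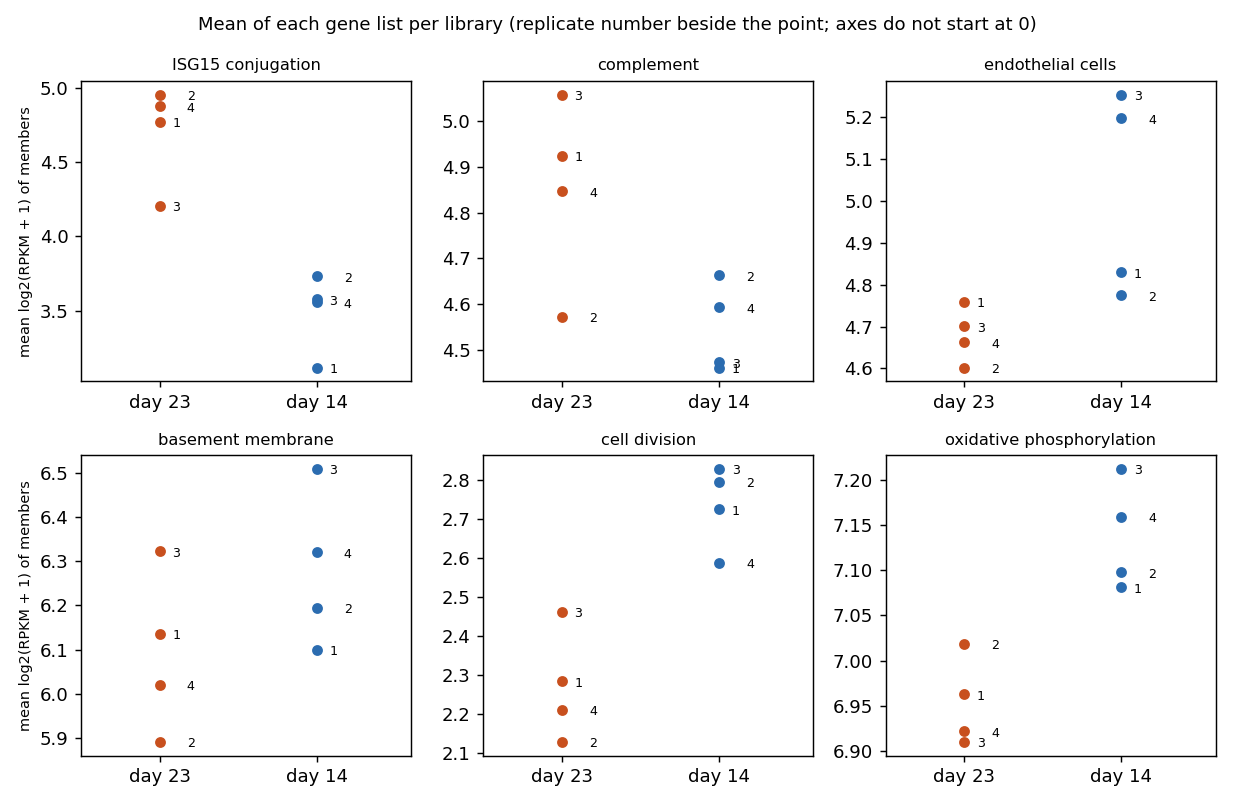
Mean log2(RPKM + 1) of the tested members of 6 gene lists per library (y axis, not from 0), day 23 left and day 14 right, with the replicate number beside each point. The ISG15 conjugation, endothelial, cell division and oxidative phosphorylation means do not overlap between the days, while complement and basement membrane means do.

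Steroidogenesis genes gave no common direction. Of 21 tested, 11 were positive and 10 negative, 1 was higher and 1 lower at an unadjusted p under 0.05, and the median was 0.01. Leaving out 1 library at a time gave 0 to 2 higher and 0 to 2 lower, with 0 higher when replicate 3 or 4 of day 14 or replicate 4 of day 23 was left out, and 0 lower when replicate 4 of either end day was. STAR, which moves cholesterol into mitochondria, had 2723, 3900, 3235 and 4376 RPKM on day 23, against 2532, 3010, 1953 and 1860 RPKM on day 14, with overlapping groups. NR5A2, a nuclear receptor that drives steroidogenic genes, averaged 43.2 ± 12.6 RPKM on day 23 and 64.7 ± 17.1 RPKM on day 14. HSD3B1, the enzyme that forms progesterone, averaged 5832 ± 1021 RPKM on day 23 and 4826 ± 461 RPKM on day 14, and CYP11A1, the first enzyme of steroid synthesis, 4047 ± 289 RPKM on day 23 and 4424 ± 476 RPKM on day 14. Both had overlapping groups, and the log2 fold change of HSD3B1, 0.26, was -0.05 with quantile normalization.

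OXT, the oxytocin precursor made by large luteal cells, had the lowest log2 fold change of the 9 luteal markers. It had 2090, 1092, 1077 and 957 RPKM on day 23, against 3652, 3106, 4136 and 5892 RPKM on day 14, with no overlap. Its log2 fold change was -1.72 ± 0.33 (limma adjusted p = 0.0812). In the list of oxytocin and its processing enzymes, OXT was the 1 member of 8 at an unadjusted p under 0.05. PTGFR, the receptor of prostaglandin F2 alpha, averaged 499 ± 110.0 RPKM on day 23 and 475 ± 116 RPKM on day 14. Of 11 prostaglandin genes 1 was at an unadjusted p under 0.05: PTGDS, which forms prostaglandin D2, with 168 ± 59.3 RPKM on day 23 and 85.5 ± 14.96 RPKM on day 14. That count of 1 higher gene was 0 when replicate 2 of day 14 or replicate 1 or 2 of day 23 was left out, and the count of lower ones, 0 here, was 1 or 2 when any one of those 8 libraries was.

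Cholesterol synthesis and uptake genes were negative in 26 of 31, with a median of -0.23 (-0.08 without replicate 4 of day 23 and -0.14 without replicate 1 of day 23), but 1 was lower and 1 higher at an unadjusted p under 0.05. The lower one, FDFT1, squalene synthase, had 142, 439, 436 and 98.5 RPKM on day 23, against 563, 484.5, 363 and 608.5 RPKM on day 14, so that 2 day 23 libraries lay within the day 14 range. The higher one was SREBF1, a transcription factor of lipid synthesis, with 59.3 ± 5.27 RPKM on day 23 and 42.5 ± 9.76 RPKM on day 14. The lower count came to 5 when replicate 2 of day 23 was left out, to 4 when replicate 3 of either day was, to 2 when replicate 4 of day 20 was, and to 0 when replicate 1 or 4 of either end day was. The higher count of 1 came to 2 when any one of 5 libraries was left out, replicate 2 or 3 of day 14, replicate 1 of day 20, or replicate 1 or 3 of day 23.

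Of 13 tested genes of lipoprotein handling, 3 were higher and 2 lower at an unadjusted p under 0.05. Besides APOD, the higher ones were ABCA1, which exports cholesterol, with 24.5 ± 6.79 RPKM on day 23 and 14.2 ± 2.98 RPKM on day 14, and LRP1, a lipoprotein receptor, with 62.9 ± 5.78 RPKM on day 23 and 52.8 ± 7.13 RPKM on day 14. ABCG1, a further cholesterol exporter, was lower and had 0.554, 0.160, 0.298 and 0.262 RPKM on day 23, against 1.34, 2.07, 2.256 and 1.74 RPKM on day 14, from 17 to 58 and 155 to 246 reads. Among 28 genes of fatty acid handling 1 was higher (4 without day 14 replicate 2) and 2 were lower at an unadjusted p under 0.05. These counts, 3.57% and 7.14%, were near the 4.35% higher and 8.31% lower of all genes. FABP3, a fatty acid carrier of heart and muscle, had 228, 207, 200.1 and 290 RPKM on day 23, against 579, 572, 714 and 786 RPKM on day 14. Its adjusted p was 0.120 in limma over 16 libraries and 0.0329 with the 8 alone. PNPLA2, the first lipase of stored fat, averaged 32.5 ± 2.83 RPKM on day 23 and 26.7 ± 2.90 RPKM on day 14, and CPT1A, which admits fatty acids to mitochondria, 19.6 ± 2.92 RPKM on day 23 and 24.9 ± 2.68 RPKM on day 14.

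Of 7 EGF family genes 2 were lower at an unadjusted p under 0.05, EREG and HBEGF, both ligands. HBEGF had 3.60, 3.88, 2.35 and 3.36 RPKM on day 23, against 4.91, 6.83, 6.30 and 34.5 RPKM on day 14, and its log2 fold change of -1.30 was -0.71 without day 14 replicate 4. In the IGF system 3 of 14 were lower and 1 was higher. The higher count was 0 when replicate 2 of day 14 or replicate 1 or 4 of day 23 was left out, 2 when replicate 1 of day 14, replicate 2 of day 23 or replicate 1 or 4 of day 17 was, and 3 with the 8 libraries alone. PAPPA, a protease that frees IGF from its binding proteins, had 3.46, 3.58, 4.09 and 2.81 RPKM on day 23, against 5.79, 7.88, 5.23 and 8.49 RPKM on day 14. IGF2R, which clears IGF2, averaged 53.4 ± 6.76 RPKM on day 23 and 66.9 ± 2.68 RPKM on day 14, and the ligand IGF2 184 ± 31.5 RPKM on day 23 and 245 ± 52.4 RPKM on day 14. INSR, the insulin receptor, was the higher one, with 12.3 ± 1.34 RPKM on day 23 and 9.60 ± 0.60 RPKM on day 14.

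ID proteins and BMP signalling had 6 of 16 members lower at an unadjusted p under 0.05, with a median of -0.17 (-0.09 without replicate 2 of day 23), but this count came to 1 when replicate 4 of day 14 was left out, and to 2 when replicate 3 of day 14 or replicate 1 or 2 of day 23 was. ID2, an inhibitor of helix-loop-helix factors, had 26.6, 48.5, 39.5 and 24.2 RPKM on day 23, against 60.4, 42.1, 58.6 and 110.8 RPKM on day 14. Of 25 immediate early genes, which answer within minutes to a stimulus, 17 were negative and 3 were lower at an unadjusted p under 0.05, a share near the 8.31% of all genes. They were FOSL1, MYC and DUSP6. MYC averaged 10.8 ± 1.96 RPKM on day 23 and 18.04 ± 3.68 RPKM on day 14, and DUSP6, which damps ERK signalling, 16.4 ± 4.49 RPKM on day 23 and 23.9 ± 1.90 RPKM on day 14. The list median of -0.20 was -0.30 when replicate 3 of day 14 was left out and 0.10 when replicate 4 was. Replicate 4 of day 14 was the highest library in all 4 of EREG, HBEGF, ID2 and MYC.

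Nuclear genes of oxidative phosphorylation were lower by small steps. Of 36 tested 33 were negative, 17 were lower at an unadjusted p under 0.05, where 8.31% of all genes were, the median was -0.20 and no member was below -0.39. ATP5MC3, a subunit of the rotor of ATP synthase, had 211, 251, 228 and 201 RPKM on day 23, against 273, 273, 331 and 290 RPKM on day 14. COX5A, a subunit of cytochrome oxidase, averaged 87.1 ± 7.32 RPKM on day 23 and 111.6 ± 7.56 RPKM on day 14. This count of 17 came to 7 when replicate 3 of day 14 was left out, to 10 when replicate 4 of day 14 or replicate 3 or 4 of day 23 was, and to 8 with median-ratio scaling. Cytosolic ribosomal proteins were negative in 47 of 50 with a median of -0.14 (-0.06 without replicate 2 of day 23). Of these 6 were lower at an unadjusted p under 0.05, near the 8.31% of all genes. That count of 6 came to 1 when replicate 2 of day 23 was left out, to 2 when replicate 1 or 3 of day 14 was, and to 3 with median-ratio scaling. RPS7 averaged 545 ± 59.9 RPKM on day 23 and 663 ± 50.2 RPKM on day 14, and its reads can be shared with processed copies.

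ATF4 is the transcription factor of amino acid stress. Of 17 of its targets 14 were negative, 7 were lower and 1 higher at an unadjusted p under 0.05, and the median was -0.29 (-0.18 without replicate 1 of day 14). The higher count was 0 when replicate 2 or 4 of day 14 or replicate 1 or 4 of day 23 was left out. PHGDH, the first enzyme of serine synthesis, had 25.3, 13.8, 18.6 and 10.5 RPKM on day 23, against 48.1, 42.8, 37.4 and 28.0 RPKM on day 14. PSAT1, the second, averaged 25.5 ± 2.32 RPKM on day 23 and 37.5 ± 7.07 RPKM on day 14, and PSPH, the last, 1.57 ± 0.36 RPKM on day 23 and 3.74 ± 2.17 RPKM on day 14. SHMT2, which passes the carbon of serine to folate, averaged 21.6 ± 2.38 RPKM on day 23 and 27.4 ± 2.92 RPKM on day 14. Of 32 genes of heat shock and protein folding 24 were negative and 6 were lower at an unadjusted p under 0.05. Besides HSPE1 and HSPD1 these included HSPA8, the constitutive cytosolic chaperone, with 492 ± 56.1 RPKM on day 23 and 637 ± 63.3 RPKM on day 14.

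Of 32 genes of glycolysis and hypoxia 3 were higher and 5 lower at an unadjusted p under 0.05 (3 lower with median-ratio scaling). ADM, adrenomedullin, a peptide that widens vessels, had 243, 294, 223 and 229 RPKM on day 23, against 116.5, 80.1, 162 and 117 RPKM on day 14, with a log2 fold change of 1.09 ± 0.27 and no overlap. CITED2 and CITED4 are related coregulators, and their values differed in opposite directions. CITED2 averaged 59.6 ± 11.9 RPKM on day 23 and 33.0 ± 10.4 RPKM on day 14, while CITED4 was lower in 4 of 4 libraries, as given above. HIF1A, the oxygen-regulated transcription factor, had 84.3, 110.2, 123.9 and 104.1 RPKM on day 23, against 161, 176, 163 and 179 RPKM on day 14.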

How the data were processed

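The authors deposited RPKM per gene for 16 libraries of messenger RNA, beside a deposited p-value and an adjusted p-value whose headers name no comparison and which were not used. Per the labels' protocols, RNA of a quality index above 8.5 went into TruSeq Stranded mRNA libraries. The submitters' processing notes name HISAT2 2.1.0, featureCounts 1.5.3, bedtools 2.26.0, FastQC, DESeq2 and the build ARS-UCD1.2. No source says whether strand was counted, so overlapping and antisense genes cannot be told apart.

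Genes reaching an RPKM of 1 in 4 or more of the 8 libraries were analysed as log2(RPKM + 1), which understates fold changes of low genes. All 16 libraries were fitted with a mean per day in limma 3.58.1 (R 4.3.3; eBayes with trend; 12 residual degrees of freedom). P-values are two-sided, adjusted by Benjamini-Hochberg over 12890 genes at a threshold of 0.05, and measure the spread between these libraries. The script was tested on simulated data.

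Whole reads recovered from the RPKM steps (21089 of 21090 genes with any read, within 0.001; HSD3B1 was the exception) gave the depth and the limma voom alternative, which called 1 gene, with 1603 at an unadjusted p under 0.05. Other alternatives were pseudocounts, filters, scalings, weights, a replicate block, the 8 libraries alone and leaving out each library.

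Named genes are, since none passed, the 10 with the smallest p in each direction, the 13 that passed with the 8 libraries alone, a list of landmarks and, for 37 of 63 gene lists, up to 4 members with the smallest p, or the 2 most abundant where none had an unadjusted p under 0.05. Members and lists were chosen with earlier results of these data known. Of 1154 listed genes, 1098 were in the table and 953 were tested. Lists are described by counts and medians, with no test. Sequences and coordinates were not used here.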

Additional observations from a re-analysis of the deposited data

Results flagged for a closer look

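In 15 of 246 groups of 4 libraries of the genes named, the highest or the lowest library lay farther from the next than the 95% limit of Dixon's test allows, where chance gives about 1 in 20. All values here are RPKM. Of the day 23 libraries, replicate 3 held 12.8 of IRF7 (30.2 to 32.4 in the other 3), 14.6 of IFNAR1 (12.4 to 12.7), 2.41 of TOP2A (0.928 to 1.15) and 1.6 of CCNB1 (0.607 to 0.749). Day 23 replicate 4 held 51 of BOLA-DRA (74.3 to 77.5), 4.35 of NCR3 (6.55 to 6.68), 5.4 of MMP9 (3.99 to 4.19) and 20.2 of PRKX (24.9 to 25.7). Day 23 replicate 1 held 2090 of OXT (957 to 1092), and replicate 2 held 43.4 of IGF2R (55.8 to 57.8). Of the day 14 libraries, replicate 4 held 80.2 of ID1 (33.8 to 39.4), 34.5 of HBEGF (4.91 to 6.83) and 62.5 of ADAMTS4 (6.38 to 8.10). Day 14 replicate 1 held 2.24 of CD2 (1.198 to 1.297), and replicate 2 held 70.9 of IGF2R (65.0 to 66.0).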

How the results depend on the processing

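The count of genes that passed was 0 over 16 libraries, and 0 with pseudocounts of 0.1 and 0.5, the filter over all 16 libraries, median-ratio scaling, quantile normalization and no intensity trend. It was 1 with a robust spread and 1 with voom on recovered reads (both HSPE1, lower), 2 with no filter and 2 with a mean RPKM of at least 5 (all lower), and 4 with array weights (2 higher, 2 lower). With the 8 libraries alone it was 13 (7 higher, 6 lower). Leaving out 1 library gave 0 to 23 over 16 libraries (0 to 16 higher, 0 to 12 lower). With the 8 alone this gave 52 (26 higher, 26 lower), 4 (all lower), 3 (1 higher, 2 lower), 1 (lower) or 0. Unadjusted counts stayed between 1185 and 2155. The labels do not say what the replicate numbers mean, and the libraries were treated as unpaired. Deviations of same-numbered libraries of the end days correlated at -0.0421, 0.0886, -0.0353 and 0.0294. The highest correlations with another number were 0.198, 0.0542, 0.0381 and 0.0252, and such values cannot settle whether the numbers mark pairs. With the replicate block 2 genes passed, both higher (ACSM1 and APOD), and 0 with the 8 libraries alone. Of 4659 values of the 123 named genes under 38 alternatives, 103 newly passed the threshold and 13 changed sign, in 4 genes of which none was at an unadjusted p under 0.05. With 1 library left out, with 16 libraries or 8, NKG7 lay between -0.1879 and 0.0842 (above 0 also at 0.0307 and 0.01291), PTGFR between -0.03879 and 0.2311 (below 0 also at -0.005841) and PGR between -0.05412 and 0.006616. HSD3B1 was -0.04685 with quantile normalization. The count of 21 lower cell division genes was 6 with a mean RPKM of at least 5, where fewer genes were tested. The causes of the other differences were not tested. Values of low genes rest on few reads.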

Other observations

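Further genes of the lists, chosen after their values were seen, are given here by their mean RPKM. Except PROX1, each had an unadjusted p under 0.05 in limma, and none passed an adjusted p of 0.05. NOS2, the inducible nitric oxide synthase, averaged 2.85 RPKM on day 23 and 6.29 RPKM on day 14, NOS3, the endothelial one, 10.6 RPKM on day 23 and 14.5 RPKM on day 14, and GUCY1B1, a subunit of the guanylate cyclase that nitric oxide activates, 21.0 RPKM on day 23 and 31.7 RPKM on day 14. In the list of endothelin, angiotensin and nitric oxide genes 5 of 12 were lower and 0 higher, and this came to 2 when replicate 3 or 4 of day 14 or replicate 2 of day 23 was left out. FST, follistatin, which binds activin, averaged 185.5 RPKM on day 23 and 69.2 RPKM on day 14 (log2 fold change 1.34). KRT8 averaged 20.6 RPKM on day 23 and 41.5 RPKM on day 14, and KRT18, its filament partner, 2.04 RPKM on day 23 and 6.68 RPKM on day 14. In the list of ovarian surface epithelium 3 of 6 tested genes were positive and 3 negative, with a median of 0.02. Of these 6, 2 were lower and 0 higher at an unadjusted p under 0.05.

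Among clock genes, NR1D1, a repressor of the clock, averaged 14.9 RPKM on day 23 and 7.30 RPKM on day 14, and DBP, a clock output factor, 24.7 RPKM on day 23 and 14.5 RPKM on day 14. The count of clock genes higher at an unadjusted p under 0.05 was 2 of 15, and 5 without day 14 replicate 4. LEF1, a transcription factor of WNT signalling, averaged 1.76 RPKM on day 23 and 4.76 RPKM on day 14, while the ligand WNT2B averaged 16.1 RPKM on day 23 and 8.39 RPKM on day 14. PDPN, a surface protein of lymphatic endothelium and other cells, averaged 163 RPKM on day 23 and 88.9 RPKM on day 14, whereas PROX1, which defines lymphatic endothelium, averaged 1.63 RPKM on day 23 and 1.67 RPKM on day 14. In the BCL2 family BAK1, which promotes cell death, averaged 24.6 RPKM on day 23 and 33.3 RPKM on day 14. BCL2L2, which restrains cell death, averaged 26.9 RPKM on day 23 and 21.9 RPKM on day 14. At an unadjusted p under 0.05, 5 of the 14 tested genes of this family were lower and 1 was higher. The count of 5 came to 1 when replicate 3 or 4 of day 14 was left out.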
